A study of Mus musculus with 6 samples.

Results

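The genes described are the matrix metalloproteinases (MMPs), the ADAM and ADAMTS proteases and the tissue inhibitors of metalloproteinases (TIMPs). They were chosen by name. Every gene was taken whose symbol in the platform annotation is Mmp, Adam or Adamts followed by a number, or Timp1 to Timp4, except for 2 Mmp genes that were set aside. This gave 76 genes of the 19938 with a probe set of their own, namely 20 MMPs, 34 ADAMs, 18 ADAMTS and 4 TIMPs, represented by 100 of the 35556 probe sets of the array. Each gene was read from its probe set with the highest mean over the 6 arrays. RNA came from laser-dissected colon tumors of C57BL/6J mice at 3 weeks of age, and each mouse gave 1 Affymetrix array of the type Mouse Gene 1.0 ST. Double knockout tumors came from 3 mice of the genotype CDX2P-G19Cre;Apcflox/flox;Tgfbr2flox/flox, and Apc knockout tumors from 3 of the genotype CDX2P-G19Cre;Apcflox/flox. Apc was thus deleted in the tumors of both groups, and the comparison addressed what the added loss of Tgfbr2, the type II receptor for TGF-β, goes along with. The Cre recombinase was under a CDX2 promoter fragment that is active in colon epithelium and became functional only after a chance frameshift reversion, so stromal and immune cells within a tumor kept both genes. In bulk RNA of this kind, fewer cells of a type and less RNA per cell cannot be told apart.

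MMPs are zinc-dependent endopeptidases that cut collagens, laminins and other matrix proteins, and many of them also release or inactivate cytokines and growth factors. In the gut most are made by fibroblasts, macrophages and neutrophils rather than by the epithelium. ADAMs are membrane-anchored relatives, of which the proteolytic members shed the extracellular part of ligands, receptors and adhesion molecules, while others lack a working active site. ADAMTS proteases are secreted, bind to the matrix through thrombospondin repeats, and cut proteoglycans, procollagens and other matrix proteins. TIMPs bind the active site of MMPs, and Timp3 inhibits several ADAM and ADAMTS proteases as well.

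Values are the authors' log2 signals after robust multichip analysis (RMA), and a difference of 1 is a factor of 2. Array medians were between 7.68 and 7.80. Double knockout tumor 2 was the least like the others, with correlations of 0.956 to 0.968 over all probe sets with the other tumors, against 0.980 to 0.988 among the other 5. Tgfbr2 was at 10.98, 10.35 and 10.47 in double knockout tumors 1 to 3, below the 11.35, 11.37 and 11.09 of Apc knockout tumors 1 to 3, although its probes were not placed relative to the deleted part. Epithelial markers were present in every tumor. The summed linear signal of 12 of them was from 65376 to 87278 with both genes deleted and from 58096 to 71245 with Apc alone. Such a sum is carried by the most abundant markers. By mean signal, 10 of the 12 were higher and 2, Cdx2 and Krt18, were lower in double knockout tumors. Cdx2 was at 8.24 in double knockout tumor 2 and between 10.08 and 11.18 in the other 5. Double knockout minus Apc knockout differences were tested with limma over the 19506 probe sets that had a symbol and a mean of at least 5.88, the 20th percentile of the array. Of the 76 genes, 58 passed this filter on the mean of all 6 arrays. The other 18 were the collagenases Mmp1a and Mmp1b and 16 ADAMs. Of these ADAMs, 15 fall in a group of reproductive tract and other ADAMs, which holds all not placed elsewhere. The means of the 18 genes lay between 3.37 and 5.85, with differences between genotypes from −0.21 to 0.14.

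More of the tested proteases and inhibitors had a lower than a higher mean signal in double knockout tumors, and most of the differences had confidence intervals that included 0. Of the 58 genes, 36 were lower and 22 higher in double knockout tumors (62.1% lower, against 47.7% of all probe sets tested), with a median log2 fold change of −0.10 against 0.01 over all sets. By family, 12 of 18 MMPs, 12 of 18 ADAMs, 9 of 18 ADAMTS and 3 of 4 TIMPs were lower, with medians of −0.32, −0.062, −0.056 and −0.32. Without double knockout tumor 2 the numbers of lower genes were 12, 11, 15 and 2. No gene passed an adjusted p of 0.05 in limma (0% of all sets did), and the adjusted p of the 58 genes lay between 0.821 and 0.994. At an unadjusted p under 0.05, limma found 5 of the 58 genes lower (8.62%, against 3.82% of all sets) and 0 higher (against 1.78%), with 5.6% of all sets past it in either direction. These were Adamts3, Adamts4, Adamts6, Adamts7 and Mmp14. The methods' t-test found 2 of the 58 genes, Adamts3 and Adamts4, while 5.12% of all sets passed it in either direction. The groups did not overlap in 9 genes. The double knockout tumors were the lower ones in 7 of these (12.1%, against 6.94% of all sets) and the higher ones in 2 (3.45%, against 5.25%). With 3 tumors against 3, the exact two-sided permutation test cannot give a p under 0.1, which is its value wherever the groups did not overlap.

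**Figure D1:**
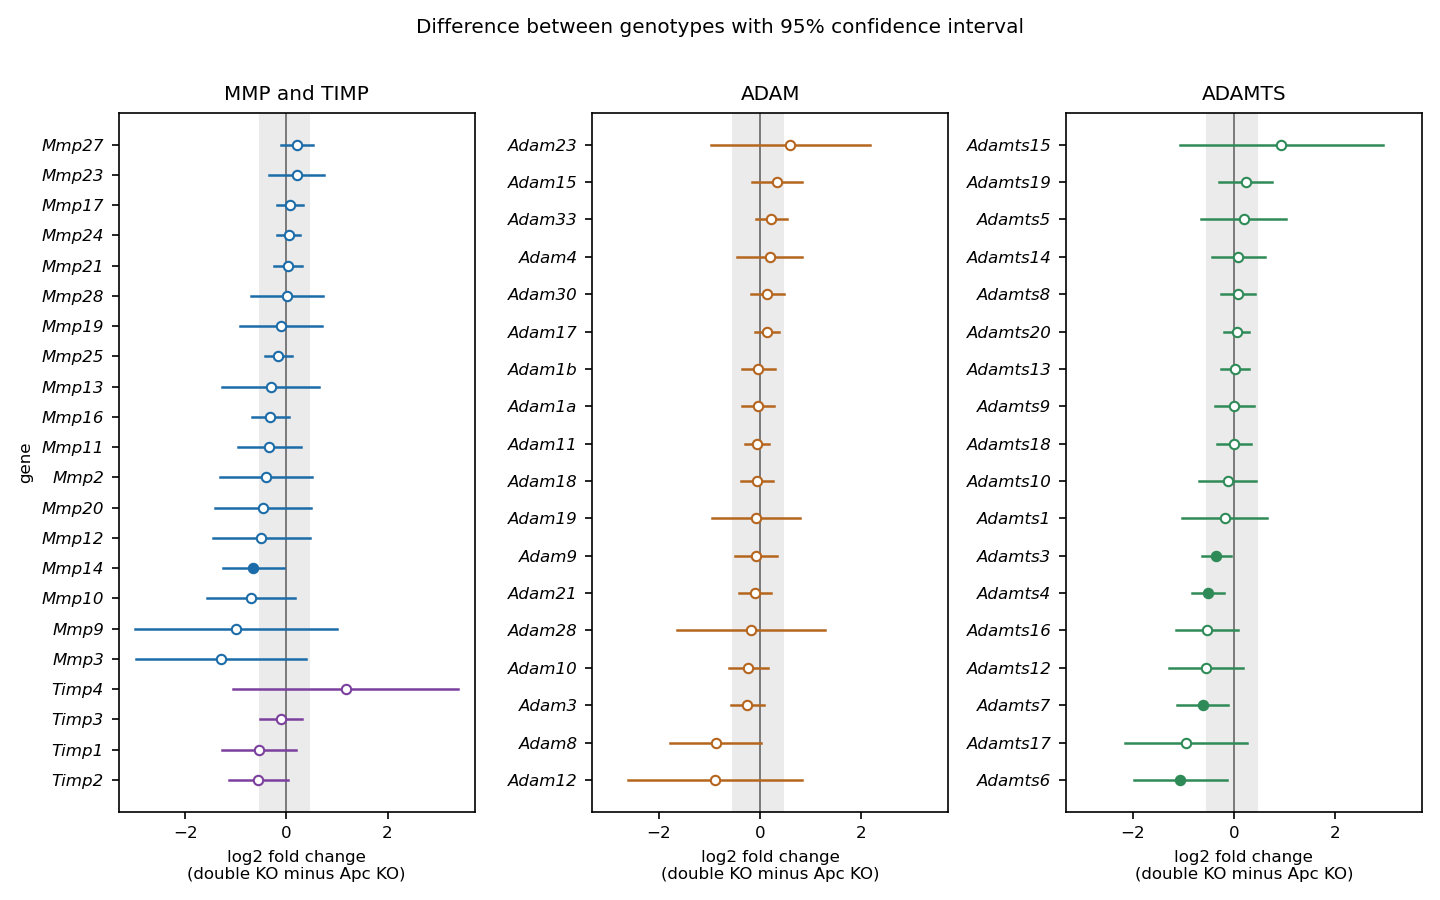
Log2 fold change of each of the 58 tested genes, double knockout (double KO) minus Apc knockout (Apc KO), on the horizontal axis, with the 95% confidence interval from limma as a line; genes on the vertical axis are sorted within each family, and MMPs (blue) and TIMPs (purple) share the left panel. Filled points have an unadjusted p under 0.05 and the gray band holds the middle of all 19506 probe sets, from the 5th percentile (−0.53) to the 95th (0.45). The 5 filled points are all on the left of 0, and most intervals cross 0.

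The number of genes at an unadjusted p under 0.05 depended on which tumor was left out. It was 11 without double knockout tumor 3 (10 lower and Adam23 higher), while leaving out Apc knockout tumor 1, 2 or 3 gave 2, 8 and 1. The share of all probe sets past the threshold moved as well, to 8.80% without double knockout tumor 3 and to 3.47%, 6.35% and 3.81% without Apc knockout tumor 1, 2 or 3. Of the 5 genes, Adamts4 remained past this threshold in each of 14 alternative analyses, Adamts3 in 11, Adamts6 and Mmp14 in 10 each and Adamts7 in 9.

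The ADAMTS family held 4 of these 5 genes. Among the 9 ADAMTS outside the proteoglycan and procollagen groups, 6 were lower, with a median of −0.52, and without double knockout tumor 2 these were 8 and −0.42. Apc knockout tumor 3 was the highest in 6 of these 9 genes (24.1% of all probe sets tested). Double knockout tumor 2 was the lowest in 5 (28.3% of all sets). Of the 7 proteoglycan-cleaving members, 2 were lower, with a median of 0.06, and without that tumor 5 were lower, with a median of −0.059. Adamts4 (probe set 10351551), a proteoglycanase that cuts aggrecan and versican, was at 8.63, 8.35 and 8.52 in double knockout tumors 1 to 3 against 8.89, 9.19 and 8.94 in Apc knockout tumors 1 to 3. Each group was tight and every double knockout tumor lay below every Apc knockout tumor. The means were 8.50 ± 0.14 and 9.01 ± 0.16 (SD, n = 3 each), a log2 fold change of −0.51 (standard error 0.13, 95% confidence interval −0.83 to −0.19, adjusted p = 0.821 from limma).

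Adamts3 (probe set 10531193), which removes the amino-terminal propeptide of procollagens and activates VEGF-C, was at 8.84, 8.70 and 8.57 in double knockout tumors against 9.14, 8.96 and 9.04 in Apc knockout tumors. The groups did not overlap, and the log2 fold change was −0.34 (standard error 0.12). The array carries 16 probe sets for this gene. All 16 were lower in double knockout tumors, from −0.57 to −0.05. The groups did not overlap in 10, and an unadjusted limma p was under 0.05 in 7 of the 15 tested. Over all probe sets tested, 6.94% were lower without overlap and 3.82% were lower at this threshold. The 16 sets read the same RNA in the same tumors and are not independent of each other. Adamts14, the other procollagen amino-proteinase measured, was close to level between the groups, with a log2 fold change of 0.09 (standard error 0.22) that was −0.084 without double knockout tumor 2.

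Adamts6 (probe set 10406982), an orphan protease known from heart development, had the largest difference of the ADAMTS genes, 2.08-fold lower in double knockout tumors. Its signals were 8.34, 7.27 and 8.31 in double knockout tumors against 8.82, 8.65 and 9.61 in Apc knockout tumors, so double knockout tumor 2 was the lowest and Apc knockout tumor 3 the highest, and the groups did not overlap. The log2 fold change was −1.06 (standard error 0.38), and −0.70 without double knockout tumor 2. Adamts7 (probe set 10587748), which cuts cartilage oligomeric matrix protein, was at 8.26, 8.06 and 8.25 against 8.95, 8.36 and 9.10. Apc knockout tumor 2 lay just above the double knockout tumors, and the difference was −0.61 (standard error 0.21).

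Adamts17, a secreted protease linked to fibrillin fibers, was at 11.11, 9.55 and 11.07 in double knockout tumors against 11.42, 11.01 and 12.12 in Apc knockout tumors. Apc knockout tumor 2 lay below double knockout tumors 1 and 3, so the groups overlapped. The log2 fold change was −0.94 (standard error 0.50), and −0.43 without double knockout tumor 2. Its 5 probe sets were all lower in double knockout tumors, from −1.29 to −0.65. Adamts16 and Adamts12 were lower by similar amounts (−0.52 and −0.55), with overlap in both.

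The remaining proteoglycan-cleaving members had overlapping groups, and for some the value was set by 1 tumor. Adamts1, which cuts versican and aggrecan, was at 8.51, 9.38 and 8.43 against 8.93, 9.46 and 8.47, a log2 fold change of −0.18 (standard error 0.35) with full overlap. Adamts5, the main aggrecanase of mouse cartilage, was at 6.84, 7.75 and 6.42 against 6.76, 7.07 and 6.59, and its difference turned from 0.20 to −0.17 without double knockout tumor 2. Adamts9, a versican-cleaving member, was at 9.65, 9.63 and 9.57 against 9.28, 9.72 and 9.81, and its 6 probe sets had differences from −0.07 to 0.11. Adamts15, also a versican-cleaving member, was at 7.27, 10.11 and 6.92 against 7.34, 7.21 and 6.92. Its log2 fold change of 0.95 (standard error 0.82) rested on double knockout tumor 2 and was −0.059 without it.

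**Figure D2:**
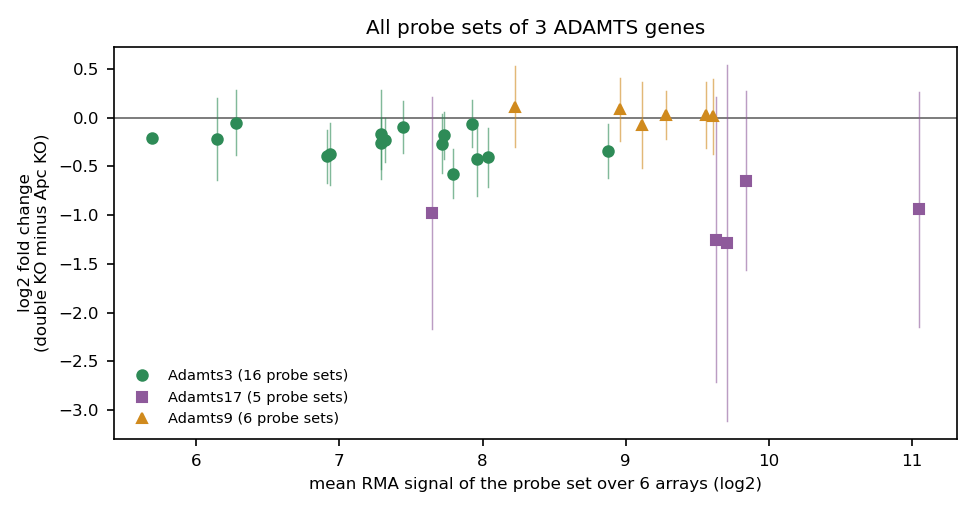
Log2 fold change of every probe set of Adamts3 (16 sets), Adamts17 (5 sets) and Adamts9 (6 sets) on the vertical axis, against the mean signal of the set over the 6 arrays on the horizontal axis; lines are 95% confidence intervals from limma, drawn for the sets that passed the filter on level. All sets of Adamts3 and Adamts17 are below 0, and those of Adamts9 lie between −0.07 and 0.11.

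Among the MMPs, both gelatinases, all 4 genes of the group of stromelysins and macrophage elastase, the collagenase Mmp13, 3 of 5 membrane-type MMPs and 2 of the 6 others had lower mean signals in double knockout tumors. Mmp14 (probe set 10415052), the membrane-type collagenase that activates pro-MMP2, was at 11.50, 10.61 and 11.43 in double knockout tumors against 11.89, 11.74 and 11.87 in Apc knockout tumors. All double knockout tumors were below all Apc knockout tumors, and double knockout tumor 2 was the lowest. On the log2 scale the groups differed by −0.65 (limma standard error 0.25, adjusted p = 0.821), and by −0.37 when tumor 2 was left out. Mmp16 and Mmp25, also anchored in the membrane, did not overlap between groups either, at small differences of −0.32 and −0.16. Mmp17 and Mmp24 were nearly level, with intervals from −0.19 to 0.33 and from −0.18 to 0.28.

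Mmp9, the gelatinase stored in neutrophil granules and made by macrophages, was nearly constant in the Apc knockout tumors (10.94, 10.85 and 10.88) and spread widely in the double knockout tumors (10.12, 8.03 and 11.52). Tumors 3 and 2 of this genotype were the highest and the lowest of all, so the mean of 9.89 ± 1.76 overlapped that of the Apc knockout tumors, 10.89 ± 0.047 (SD, n = 3 each), and the log2 fold change was −0.068 without double knockout tumor 2. Of 11 neutrophil markers, 9 had lower signals in double knockout tumors and 3 of them had an unadjusted limma p under 0.05. The 9 ran from −2.64 for Ngp to nearly level values for Camp, Csf3r and Mpo, at −0.046, −0.016 and −0.005. Summed linear signals were 1334, 3551 and 2104 in double knockout tumors 1 to 3 against 7100, 6574 and 3026 with Apc alone deleted. Over all probe sets, 47.7% were lower and 3.82% were lower at this threshold. The part of these cells in the difference was not tested. Mmp2, the gelatinase of fibroblasts, was at 11.11, 11.03 and 10.38 against 11.29, 10.55 and 11.88, with overlapping groups and a log2 fold change of −0.40 (standard error 0.37). Leaving out 1 tumor moved this value between −0.75 (without Apc knockout tumor 2) and −0.085 (without Apc knockout tumor 3).

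The secreted MMPs of a gene cluster on mouse chromosome 9 are described as a set, a grouping made after their values were seen. Along the chromosome, by RefSeq positions in GRCm38.p6, the members measured here are Mmp13, Mmp12, Mmp1b, Mmp3, Mmp1a, Mmp10, Mmp27 and Mmp20. An AP-1 motif, the letters TGAGTCA or, on the other strand, TGACTCA, was found within 250 bases before to 50 after the start in 6 of these 8 genes, against 5.95% of the 27025 genes with such a window. The promoter windows are those of RefSeq. AP-1 is the Jun and Fos factor through which growth factors and inflammatory signals are known to induce several MMPs. The 6 sequences are shown because they hold the same short motif close to the start, followed by that of Mmp14 from another chromosome, which has no match in its window. Each runs 5′ to 3′ from 120 to 21 bases before the RefSeq start of GRCm38.p6, with the AP-1 letters in capitals.
Mmp13: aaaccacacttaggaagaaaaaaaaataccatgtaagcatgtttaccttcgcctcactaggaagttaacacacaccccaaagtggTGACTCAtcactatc
Mmp12: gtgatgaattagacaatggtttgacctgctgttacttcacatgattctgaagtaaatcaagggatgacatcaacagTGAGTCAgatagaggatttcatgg
Mmp1b: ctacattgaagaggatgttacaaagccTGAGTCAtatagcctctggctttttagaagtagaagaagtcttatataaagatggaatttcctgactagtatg
Mmp3: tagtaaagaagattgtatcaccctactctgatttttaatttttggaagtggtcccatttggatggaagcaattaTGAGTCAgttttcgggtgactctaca
Mmp1a: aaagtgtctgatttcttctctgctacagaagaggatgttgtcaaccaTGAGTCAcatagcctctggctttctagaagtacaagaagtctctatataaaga
Mmp10: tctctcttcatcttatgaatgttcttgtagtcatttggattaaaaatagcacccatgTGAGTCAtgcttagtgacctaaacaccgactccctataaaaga
Mmp14: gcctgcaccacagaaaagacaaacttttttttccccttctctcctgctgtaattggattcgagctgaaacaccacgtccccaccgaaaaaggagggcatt
The stretches are chr9:7272394-7272493, chr9:7347254-7347353, chr9:7445702-7445801, chr9:7464021-7464120, chr9:7502222-7502321 and chr14:54431478-54431577 on the plus strand, and chr9:7388047-7388146 on the minus strand for Mmp1b. The motif began 35 bases before the start in Mmp13, 44 in Mmp12, 46 in Mmp3, 63 in Mmp10, 73 in Mmp1a and 93 in Mmp1b. The TCF letters CTTTGAT, the Smad letters GTCTAGAC and the TGF-β inhibitory element, all searched on both strands, were in the windows of 0 of the 8 genes, and were in those of 4.29%, 0.248% and 1.19% of all genes. A window was given for 46 of the 76 genes, so shares by family cover only part of each protease family. The AP-1 letters were in 9 of the 46 genes (19.6%). These were 6 of 15 MMPs, all in the cluster, and 3 of 18 ADAMs, with 0 of 9 ADAMTS and 0 of 4 TIMPs. The TCF, Smad and inhibitory element letters were in 0 of the 46. A motif match describes letters and says nothing about binding in these tumors.

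Of the 6 cluster genes with tested signals, 5 were lower in double knockout tumors, with Mmp27 the exception at 0.22. Mmp3, stromelysin-1, was at 8.54, 7.71 and 7.46 in double knockout tumors against 7.97, 10.67 and 8.95 in Apc knockout tumors. Apc knockout tumor 2 stood far above the others, and without it the log2 fold change was −0.55, against −1.29 (standard error 0.69) with it. Mmp10, stromelysin-2, was at 10.64, 10.07 and 11.52 against 11.25, 11.61 and 11.47, a difference of −0.70 (standard error 0.36) with double knockout tumor 3 among the Apc knockout tumors. Mmp12, the elastase of macrophages, was at 8.44, 7.66 and 9.18 against 9.28, 8.81 and 8.67, a difference of −0.49 (standard error 0.39). Of 10 macrophage markers, 6 were lower, from −0.42 for Lyz2 to 0.69 for Cd163, with summed linear signals of 9278 to 11710 in double knockout against 9805 to 13419 in Apc knockout tumors. Their part in the Mmp12 difference was not tested.

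Mmp13, the main interstitial collagenase of mice, was at 10.17, 10.19 and 11.23 against 10.60, 11.48 and 10.44. Double knockout tumors 1 and 2 lay below all Apc knockout tumors, and tumor 3 lay among them, so the groups overlapped. The difference of −0.31 (standard error 0.39) was 0.01 without Apc knockout tumor 2. Double knockout tumor 3 was thus the highest of its group for Mmp9, Mmp10, Mmp12 and Mmp13, and lay within or above the range of the Apc knockout tumors for each of them. Without it, Mmp9, Mmp10 and Mmp12 reached an unadjusted limma p under 0.05, with log2 fold changes of −1.82, −1.09 and −0.87, in a fit where 8.80% of all probe sets did, against 5.6% with all tumors. Without double knockout tumor 2 instead, the values of these 3 genes were −0.068, −0.37 and −0.11.

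**Figure D3:**
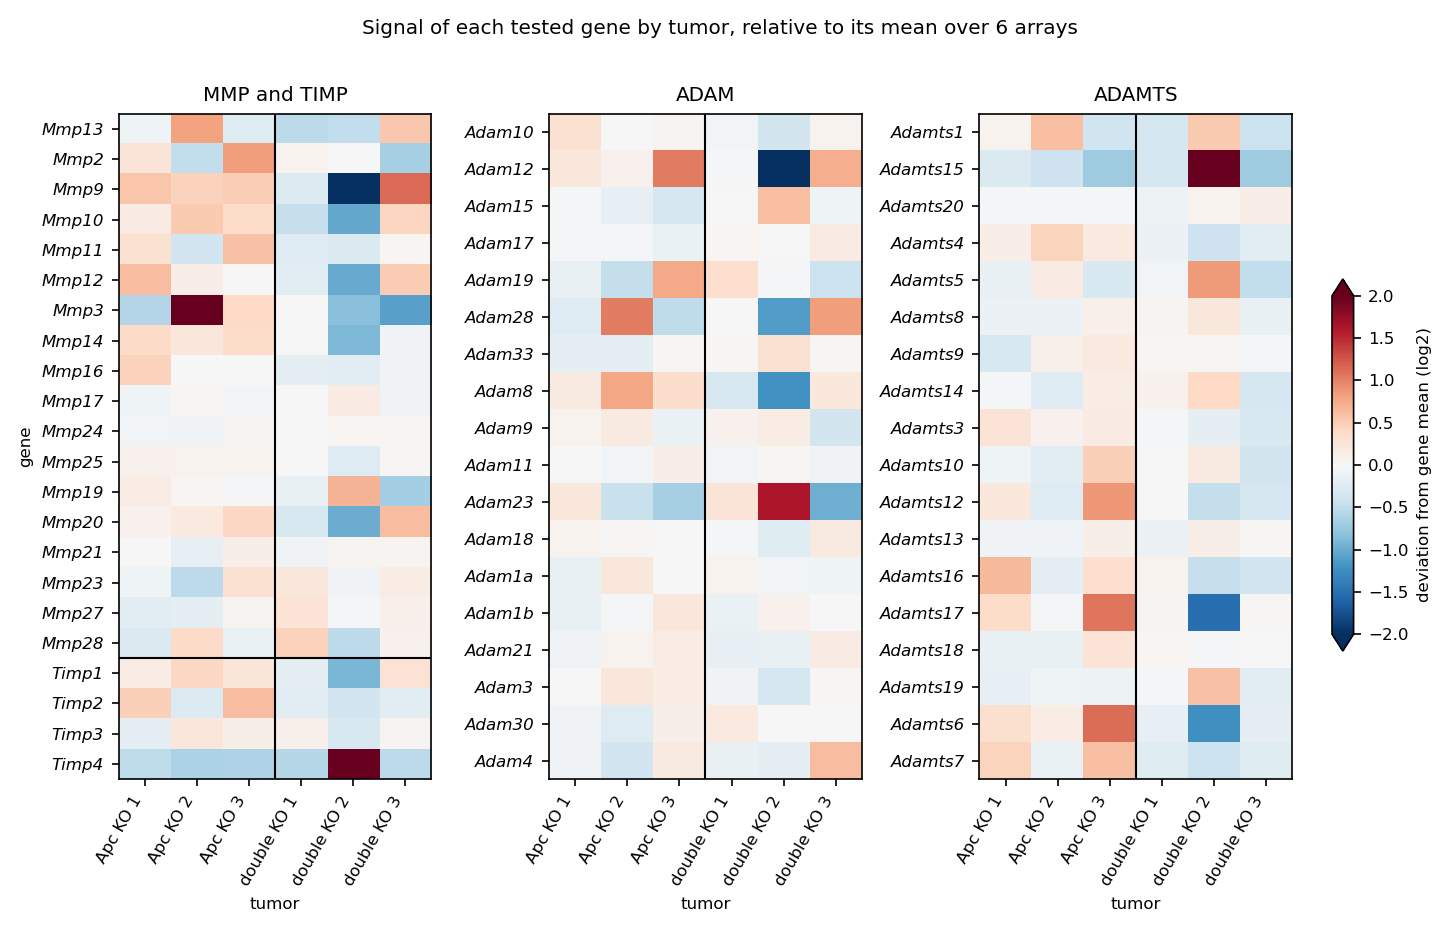
Deviation of each tested gene from its own mean over the 6 arrays (color, log2 scale, ending at −2 and 2), with genes in rows and tumors in columns; a black vertical line parts Apc knockout (Apc KO) from double knockout (double KO) tumors, and a horizontal line parts MMPs from TIMPs. Double knockout tumor 2 holds the strongest colors, in both directions, and Mmp3 stands out in Apc knockout tumor 2.

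Among the ADAMs, the broadly expressed sheddases were close to level. Adam10, the constitutive sheddase of Notch receptors and E-cadherin, was at 11.69, 11.37 and 11.81 in double knockout tumors against 12.05, 11.73 and 11.79 in Apc knockout tumors. The ranges overlapped, and the log2 fold change was −0.23 with a 95% confidence interval of −0.62 to 0.15. Adam17, which releases TNF and ligands of the EGF receptor, was at 10.43, 10.40 and 10.56 against 10.36, 10.36 and 10.26. All double knockout tumors were above all Apc knockout tumors, by a small amount (0.14, 95% confidence interval −0.10 to 0.38). Adam33 was higher by 0.22 in double knockout tumors, at levels between 7.44 and 7.92, and its nearest tumors of either group were both at 7.64. Adam9 and Adam15, both widely expressed, differed by −0.08 and 0.34 with overlap.

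Adam8, found on neutrophils and macrophages, was at 8.98, 8.09 and 9.50 in double knockout tumors against 9.48, 10.07 and 9.65 in Apc knockout tumors. The ranges overlapped slightly, at double knockout tumor 3 and Apc knockout tumor 1. On the log2 scale the difference was −0.87 (limma standard error 0.37, adjusted p = 0.821), and −0.49 without double knockout tumor 2. Adam12, a sheddase of activated fibroblasts, was at 9.15, 7.17 and 9.91 against 9.39, 9.27 and 10.23, and the difference of −0.89 (standard error 0.71) was −0.10 without double knockout tumor 2. Adam28, known from lymphocytes, ranged from 6.35 to 8.48 over the 6 tumors, with a difference of −0.17 that was 0.34 without double knockout tumor 2. Adam23, which lacks protease activity and binds integrins, was at 7.80, 9.15 and 6.56 against 7.75, 7.09 and 6.87. Its difference of 0.60 (standard error 0.64) turned to −0.055 without double knockout tumor 2. The 7 tested genes in the group of reproductive tract and other ADAMs had differences between −0.25 and 0.19.

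Of the inhibitors, Timp1 and Timp2 had lower mean signals, Timp3 differed little and Timp4 was high in 1 tumor. Timp2, which both inhibits MMPs and takes part in the activation of pro-MMP2 by MMP14, was at 10.22, 10.07 and 10.22 in double knockout tumors against 10.93, 10.18 and 11.06 in Apc knockout tumors. Apc knockout tumor 2 lay among the double knockout tumors, so the groups overlapped, and the difference was −0.56 on the log2 scale (limma standard error 0.24, adjusted p = 0.821). Timp1, the inducible inhibitor, was at 9.25, 8.53 and 9.72 against 9.59, 9.86 and 9.68. The difference of −0.54 (standard error 0.30) was −0.22 without double knockout tumor 2. Timp3, which is bound to the matrix, was at 10.57, 10.13 and 10.51 against 10.28, 10.69 and 10.57, a difference of −0.11 with a 95% confidence interval of −0.52 to 0.31. Timp4, known from heart and other muscle, was at 9.41 in double knockout tumor 2 and between 5.93 and 6.05 in the other 5 tumors. Its log2 fold change of 1.17 (standard error 0.92) was 0.038 without that tumor.

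**Figure D4:**
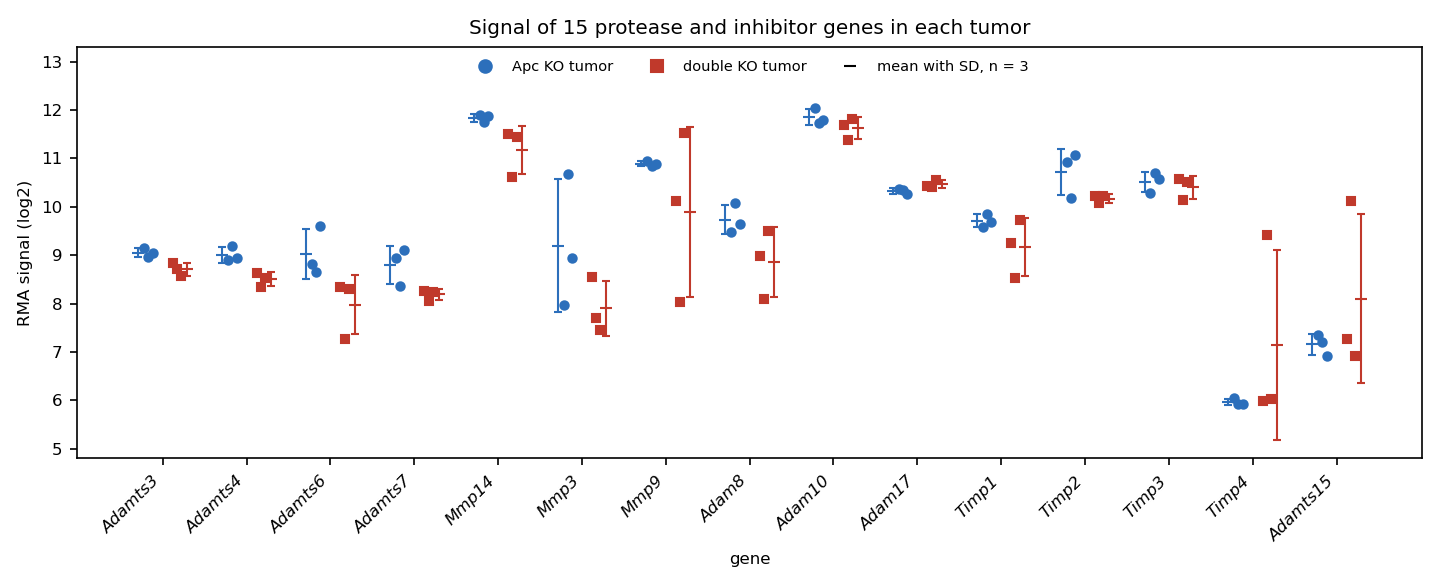
Log2 RMA signals (vertical axis) in single tumors for 15 genes (horizontal axis), for Apc knockout tumors (blue circles) and double knockout tumors (red squares), with group means and SD bars (n = 3). Adamts3, Adamts4, Adamts6, Adamts7 and Mmp14 do not overlap between groups, with the double knockout tumors below, whereas Timp4 and Adamts15 have 1 high red point each, at 9.41 and 10.11.

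The families were also compared tumor by tumor, by the median over their tested genes of the deviation from each gene's mean. For MMPs it was −0.04, −0.27 and 0.05 in double knockout tumors 1 to 3 and 0.08, 0.06 and 0.10 in Apc knockout tumors 1 to 3. The double knockout tumors were thus below the Apc knockout tumors, with tumor 2 furthest. The margin was very small, with double knockout tumor 3 at 0.048 and Apc knockout tumor 2 at 0.057. For TIMPs it was −0.21, −0.35 and −0.09 against −0.02, −0.02 and 0.18, which also did not overlap. This is a median over only 4 genes, and in each of the 4 taken singly the groups overlapped. For ADAMTS it was −0.03, 0.04 and −0.24 against −0.02, −0.08 and 0.18. For ADAMs it stayed between −0.04 and 0.09 in all tumors. In the ADAMTS and ADAM families the groups overlapped, and over all probe sets tested the medians were between −0.01 and 0.02. Without double knockout tumor 2, the median log2 fold change was −0.10 for MMPs and −0.10 for TIMPs, and −0.21 for ADAMTS.

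**Figure D5:**
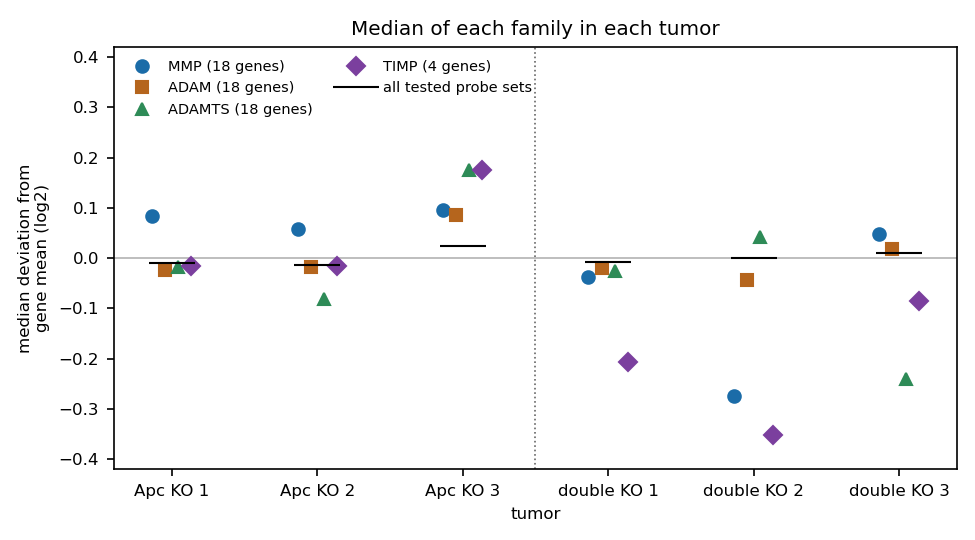
Median deviation from the gene mean on the log2 scale (vertical axis) of the tested MMP, ADAM, ADAMTS and TIMP genes in each tumor (horizontal axis), with the median of all tested probe sets as a black bar; a dotted line parts Apc knockout (Apc KO) from double knockout (double KO) tumors. MMPs and TIMPs are lowest in double knockout tumor 2, at −0.27 and −0.35, and ADAMTS in double knockout tumor 3, at −0.24.

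Single tumors set many of these values. Double knockout tumor 2 ranked lowest for 23 of the 58 genes (39.7%, against 28.3% of all probe sets tested) and the highest for 12 (20.7%, against 28.5%). It lay at least 1 log2 unit from the nearest other tumor in 7 genes, above in Adam23, Adamts15 and Timp4 and below in Mmp9, Adam12, Adamts17 and Adamts6 (12.1%, against 4.94% of all sets). In the same tumor the summed linear signal of 10 smooth muscle markers was 18735, against 4341 to 6767 in the other 5. That of 12 colonocyte differentiation genes was 76237, against 28717 to 46730. Within this list the genes differed: Slc26a3, Car4 and Aqp8 were at 12.35, 12.87 and 11.83 in double knockout tumor 2, against at most 8.49, 9.62 and 8.63 in the others. Slc9a3 and Guca2b were lowest in that tumor, at 8.27 and 10.09. The sum of 10 fibroblast markers was 20715, against 7402 to 16659. Their part in the values of this tumor was not tested. Apc knockout tumor 3 was the highest for 17 of the 58 genes (29.3%, against 24.1% of all sets) and the lowest for 3 (5.17%, against 19.0%). It led for Mmp2, Adam12, Adam19, Adamts6, Adamts7, Adamts12, Adamts17 and Timp2. Its sum of fibroblast markers (16472) was close to that of Apc knockout tumor 1 (16033), and its sum of epithelial markers (58096) was the lowest of all. The 9 endothelial markers had a median difference of 0.05 between genotypes.

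Genes that act together with these proteases were examined from lists of partners, activators, inhibitors and substrates. Of 33 tested, 0 passed an adjusted p of 0.05 in limma and 1 was lower at an unadjusted p under 0.05, a threshold that 3.82% of all probe sets passed in this direction. This was Btc, betacellulin, an EGF receptor ligand shed by ADAM10, at 8.88, 8.36 and 8.89 in double knockout tumors against 9.29, 9.71 and 9.11 in Apc knockout tumors. The groups did not overlap, and the log2 fold change was −0.66 (standard error 0.22). Tspan5, a tetraspanin that guides ADAM10 to the cell surface, was at 10.09, 9.02 and 10.39 against 10.76, 10.55 and 10.63, also without overlap, a difference of −0.81 (standard error 0.35) that was −0.41 without double knockout tumor 2. Tgfa, shed by ADAM17, was at a log2 fold change of −0.45 (standard error 0.19) with overlap and −0.28 without the same tumor, and Rhbdf2, which brings ADAM17 to the surface of cells, at −0.33 (standard error 0.17). Tspan15, Tspan33 and Hbegf went the other way, at 0.58, 0.38 and 0.35 with overlap, and at 0.21, −0.042 and 0.088 without that tumor. Of the 9 partners of ADAM10 and ADAM17, 5 were lower and 4 higher. Of the 11 shed substrates tested, 7 were lower and 4 higher (47.7% of all probe sets were lower).

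The proprotein convertases that activate many MMPs and ADAMs were lower in 3 of 4 cases, with furin at −0.13 (standard error 0.11), and at −0.052 without double knockout tumor 2. The membrane-bound MMP inhibitor Reck differed by −0.03 (standard error 0.26), or −0.25 without that tumor, and Bsg, the MMP inducer basigin, by −0.03 (standard error 0.09). Vcan, the proteoglycan versican, was at 9.93, 9.93 and 8.27 against 9.25, 8.90 and 9.41, and its groups overlapped (0.19, standard error 0.47), with a difference of −0.087 when double knockout tumor 2 was left out.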

How the data were processed

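Total RNA of laser-dissected tumors was hybridized by the authors to Mouse Gene 1.0 ST arrays and processed with RMA in GeneSpring GX ver. 11, per the methods and the labels. RMA corrects background, quantile-normalizes arrays and summarizes probes, and the authors deposited its log2 output. No RMA version or annotation build was found in those sources. The number of arrays limits the precision. The labels give each array its own animal number.

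Of 35556 probe sets, 21789 had 1 symbol, 1621 several and 12146 none, and sets with several entered no gene value. No detection call was made. Those with a symbol and a mean of at least 5.88, the 20th percentile, were fitted with limma 3.58.1 in R 4.3.3 (lmFit, eBayes, two-sided, no covariates, Benjamini-Hochberg over 19506 sets, threshold 0.05). The level filter stands in for the 20% cut-off of the methods, whose measure they do not give. Exact permutation tests used all splits of 3 against 3. The fit was tested on simulated data. Promoter sequences and gene order came from RefSeq tables of GRCm38.p6.

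The members, gene lists and tests were chosen with earlier results of these data known. Values were given for the TIMPs and 13 listed proteases, members with an unadjusted p under 0.05 and the 3 largest differences of each protease family, and others are named as examples chosen after their values were seen. Alternatives were no filter, a 40th percentile filter (7.15), median centring, a further quantile normalization, trend with robust eBayes, the methods' unpaired t-test with equal variances, averaging a gene's probe sets, leaving out each tumor, and a block for the replicate number. The 2 Mmp genes set aside are not reported here.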

Additional observations from a re-analysis of the deposited data

How the results depend on the processing

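The count of genes passing an adjusted p of 0.05 was 0 in every alternative. The count at an unadjusted p under 0.05 (5 in the analysis reported) was 2 with the methods' t-test and between 1 and 11 with each tumor left out in turn. The replicate number as a block gave 8. The share of all sets past the threshold moved too, from 5.6% to 5.12% with the t-test and to 6.92% with the block. With a tumor left out it was 3.47% to 8.80%. Same-numbered tumors did not deviate together (correlations of −0.20, −0.06 and 0.09, and 1 of the 3 double knockout tumors correlated best with its own number), so the numbers were not taken to pair the tumors. The count of lower genes, 36 of 58, was 34 to 40 with a tumor left out, 45 of 76 without a filter and 30 of 41 at the 40th percentile filter. That filter gave medians of −0.43 for ADAMTS and −0.54 for TIMPs, with fewer genes tested. With each tumor left out, the median log2 fold change was −0.28 to −0.095 for MMPs, −0.095 to −0.029 for ADAMs, −0.21 to 0.068 for ADAMTS and −0.39 to −0.097 for TIMPs. The sign of 7 named genes turned when some tumor was left out, with ranges of −0.15 to 0.12 for Adamts9, −0.23 to 0.028 for Timp3, −0.66 to 0.0099 for Mmp13, −0.48 to 0.073 for Adamts1, −0.17 to 0.49 for Adamts5, −0.055 to 1.24 for Adam23 and −0.059 to 1.53 for Adamts15. The cause was not tested. The other 18 genes chosen by the naming rule kept their sign in every alternative run. Median centring moved the median of all probe sets to 0.04. The arrays carry no detection call, so low signals such as those of Mmp16 or Timp4 hold an unknown share of background.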
